A study of Mus musculus with 9 samples.

Results

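The mouse Hox genes are the homeobox genes of the Hoxa, Hoxb, Hoxc and Hoxd clusters, numbered by paralog group along each cluster. They were taken as every linear RNA entry whose symbol is Hoxa, Hoxb, Hoxc or Hoxd followed by a number, which gave 31 of 31405 linear entries, 10 in Hoxa, 9 in Hoxb, 9 in Hoxc and 3 in Hoxd. A further 8 Hox genes named in the GENCODE M21 annotation (Hoxa11, Hoxb13, Hoxd1, Hoxd3, Hoxd9, Hoxd10, Hoxd11 and Hoxd12) were not analysed here. RNA came from mouse bone marrow mesenchymal stem cells (BMSCs), the stromal cells of the marrow, bought at passage P1 from a commercial supplier. The C2S group was cultured for 7 days in osteogenic medium to which dicalcium silicate, a ceramic of calcium and silicate, had been added, and the OM group for 7 days in osteogenic medium alone. Osteogenic medium adds 100 nM dexamethasone, a synthetic glucocorticoid, 0.2 mM ascorbic acid and 10 mM β-glycerophosphate. The PM group was cultured for 7 days too, in proliferation medium, whose base is DMEM with fetal bovine serum, and all 3 groups share the cell stock. Each group had 3 libraries of total RNA. The labels give no strain, sex, age or bone of origin, they list several C2S doses without tying one to the sequenced cells, and they do not say whether the libraries are separate cultures. A p-value here therefore reflects the spread between libraries alone, and that spread may be technical.

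Hox proteins are transcription factors that bind DNA with TALE homeodomain cofactors of the Pbx, Meis and Pknox families. Within a cluster the genes lie in the order in which they are used along the body, with low paralog numbers in the head and neck and high ones in the lumbar, sacral and tail regions and in the distal limb. Stromal cells taken from adult tissues keep much of the Hox pattern of the place they came from, and such a pattern is often read as positional identity. Polycomb proteins hold silent Hox genes off, Trithorax proteins keep active ones on, and retinoic acid sets their first expression in the embryo.

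Values of the linear RNAs are FPKM, in which a fragment count is divided by transcript length and library size, so levels of different genes can be set side by side. Read numbers here and below were recovered from the steps of the deposited values, since no counts were used. By that estimate a library held 29581795 to 38763981 reads, and the 7SK RNA gene Rn7sk took 28.8% to 36.1% of its summed FPKM. The cell type label was checked against marker genes. Of the 12 stromal markers, the collagen gene Col1a2, the growth factor receptor gene Pdgfra, the surface antigen gene Ly6a and the chemokine gene Cxcl12 were expressed in every library, while Thy1 stayed at or under 1.21 FPKM, Eng at or under 1.39 FPKM and Lepr at or under 0.422 FPKM. Nt5e was low too, with means of 0.486 FPKM in C2S, 0.680 in OM and 2.53 in PM libraries. The pan-leukocyte gene Ptprc, the macrophage gene Adgre1 and the haemoglobin gene Hba-a1 were at or near 0 in all libraries. Other genes of the blood and macrophage lists were expressed in every library, Cd34 at 83.2 to 137 FPKM and Cd14 at 10.4 to 41.2 FPKM. Lyz2 averaged 4.04 FPKM in PM libraries. In bulk RNA, fewer cells that express a gene and less RNA per cell cannot be told apart.

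A Hox gene is called on in a group here where its mean was at least 1 FPKM. By that measure 21 of the 31 genes were on in at least 1 group, 9 were low and 1 (Hoxd13) was at 0 in every library. In the C2S group 20 genes were on, in the OM group 20 and in the PM group 21, the difference being Hoxa3. Hoxc was the most complete cluster, with 8 of 9 genes on, followed by Hoxb with 7 of 9 and Hoxa with 6 of 10, while Hoxd had 0 of 3. Genes near the limit were Hoxb8 (1.04 FPKM in C2S, 1.10 in OM and 1.40 in PM libraries) just above it and Hoxb5 (0.965 FPKM in PM libraries) under it.

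**Figure D1:**
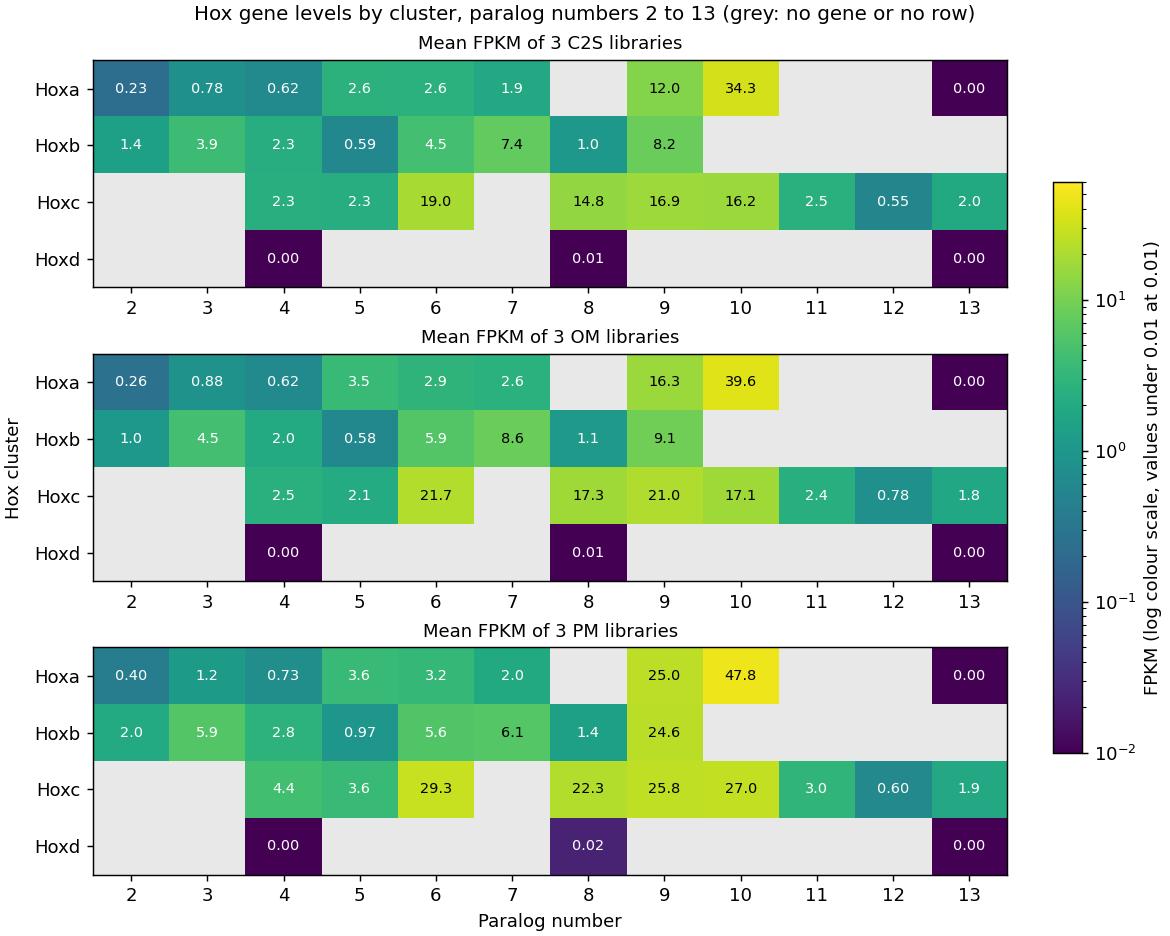
Mean FPKM of Hox genes in the 3 libraries of each medium, with the clusters as rows and paralog numbers 2 to 13 as columns on a logarithmic colour scale, and with means rounded to the digits shown. Hoxa9, Hoxa10, Hoxc6, Hoxc8, Hoxc9 and Hoxc10 are above 10 FPKM in all 3 media, Hoxa10 has the highest level, and the 3 Hoxd genes shown are dark.

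Summed FPKM of the genes measured was concentrated in the middle of the paralog series. Paralog numbers 6 to 10, with 13 genes, held 85.8% to 88.3% of the summed Hox FPKM of a library. Numbers 1 to 5, also with 13 genes, held 9.48% to 11.1%, and numbers 11 to 13, with 5 genes, 2.01% to 3.19%. Hoxa11, Hoxb13, Hoxd11 and Hoxd12 were not analysed here, so the share of numbers 11 to 13 leaves them out. The largest sums belonged to paralog number 9 (37.1 ± 1.02 FPKM in C2S, 46.4 ± 2.35 in OM and 75.4 ± 1.01 in PM libraries, SD, n = 3 each) and to number 10 (50.5 ± 1.41 FPKM in C2S, 56.7 ± 1.39 in OM and 74.8 ± 1.81 in PM libraries, SD, n = 3 each). Among numbers 6 to 10, number 7 was the one whose mean sum was higher in OM than in PM libraries, with 9.29 ± 0.599 FPKM in C2S, 11.1 ± 0.836 in OM and 8.03 ± 0.502 in PM libraries (SD, n = 3 each).

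The Hox genes that were on lay in clusters on chromosome 6 (Hoxa, 52155590 to 52260880), chromosome 11 (Hoxb, 96271457 to 96368256) and chromosome 15 (Hoxc, 102921103 to 103036852), on build mm10 with GENCODE M21 positions. The 250 bases upstream of the RefSeq start (GRCm38.p6) are shown for the highest called gene of each of these clusters that has a promoter entry, and for Hoxa9, chosen after its values were seen because it was lower in each step of the 3 groups. An entry was found for 15 of the 31 genes, and Hoxc6, Hoxb9 and Hoxb7 are not among them. Capitals mark a half-site motif found by letters, and no letters of the motifs searched were found in the Hoxa10 window.
Hoxa10, chr6:52240855-52241104, minus strand: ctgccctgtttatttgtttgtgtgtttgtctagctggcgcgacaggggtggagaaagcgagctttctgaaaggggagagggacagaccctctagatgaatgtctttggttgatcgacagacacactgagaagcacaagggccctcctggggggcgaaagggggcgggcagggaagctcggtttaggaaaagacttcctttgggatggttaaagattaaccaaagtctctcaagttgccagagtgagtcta
Hoxa9, chr6:52227371-52227620, minus strand, from a start 3719 bases inside the GENCODE gene: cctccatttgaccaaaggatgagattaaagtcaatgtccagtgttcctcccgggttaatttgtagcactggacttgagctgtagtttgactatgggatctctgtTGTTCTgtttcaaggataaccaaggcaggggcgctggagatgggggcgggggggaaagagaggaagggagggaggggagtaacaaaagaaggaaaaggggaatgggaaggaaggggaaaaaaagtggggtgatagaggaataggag
Hoxb4, chr11:96318017-96318266, plus strand: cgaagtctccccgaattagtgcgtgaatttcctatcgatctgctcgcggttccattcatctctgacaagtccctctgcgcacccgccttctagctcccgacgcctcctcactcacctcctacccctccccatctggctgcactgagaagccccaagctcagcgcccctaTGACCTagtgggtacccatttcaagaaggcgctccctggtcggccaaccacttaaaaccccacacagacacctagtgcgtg
Hoxc4, chr15:103034145-103034394, plus strand, from a start 15461 bases inside the GENCODE gene: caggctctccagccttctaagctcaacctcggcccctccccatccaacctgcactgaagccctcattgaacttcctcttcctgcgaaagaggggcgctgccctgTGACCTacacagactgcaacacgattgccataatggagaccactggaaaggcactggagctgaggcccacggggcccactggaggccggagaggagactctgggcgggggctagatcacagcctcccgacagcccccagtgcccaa
The glucocorticoid receptor half-site AGAACA, searched on both strands, was present in 1 of 15 Hox windows (Hoxa9, as TGTTCT at -146 to -141 from the start) and in 16.1% of all 32851 windows of the same length. The retinoic acid receptor half-site AGGTCA was present in 4 of 15 (Hoxb4 at -81 to -76, Hoxc4 at -146 to -141, Hoxd4 and Hoxd8) and in 14.02% of all. The TATA box TATAAA was found in 3 of 15 (12.4% of all) and the Pbx-Hox joint site TGATTNAT in 1 of 15, Hoxa2 (2.82% of all). The Hox windows had a median GC content of 58% and 8 CpG dinucleotides, against 52.4% and 6 in all windows.

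In the Hoxa cluster, paralogs 9 and 10 stood above the rest. Hoxa10 (ENSMUSG00000000938), which in mouse helps to set the rib-free lumbar vertebrae, was the highest Hox gene of the study, with 34.1, 33.2 and 35.5 FPKM in C2S, 38.6, 39.7 and 40.3 FPKM in OM and 45.9, 47.2 and 50.3 FPKM in PM libraries. Hoxa9 (ENSMUSG00000038227), known for its part in blood stem cells and in the thoracic skeleton, had 12.5, 10.9 and 12.5 FPKM in C2S, 15.5, 16.8 and 16.7 FPKM in OM and 24.2, 25.7 and 25.3 FPKM in PM libraries. For both genes the 3 groups did not overlap, the C2S libraries being lowest and the PM libraries highest. These 2 values rested on many reads, 2869 to 4092 per library for Hoxa10 and 1187 to 2799 for Hoxa9.

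Lower paralogs of Hoxa were on at levels of a few FPKM. Hoxa5, which patterns the neck and upper chest skeleton, had 2.69, 2.51 and 2.71 FPKM in C2S, 3.03, 4.22 and 3.25 FPKM in OM and 3.93, 3.66 and 3.21 FPKM in PM libraries. Its C2S libraries lay below all others, and the OM and PM libraries overlapped. Hoxa6 ranged from 2.35 to 2.85 FPKM in C2S, from 2.59 to 3.39 FPKM in OM and from 2.48 to 4.01 FPKM in PM libraries, so that the groups overlapped. Hoxa7, a trunk patterning gene, had 2.27, 1.68 and 1.79 FPKM in C2S, 2.55, 2.74 and 2.45 FPKM in OM and 1.98, 2.10 and 1.80 FPKM in PM libraries. The OM libraries were the highest for Hoxa7, and the C2S and PM libraries overlapped. Hoxa3, needed in mouse for the thymus and parathyroid, lay around the limit, with 0.503, 1.01 and 0.828 FPKM in C2S, 0.742, 1.12 and 0.798 FPKM in OM and 1.249, 1.32 and 0.913 FPKM in PM libraries.

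Other Hoxa genes were low. Hoxa2, which gives the second pharyngeal arch its identity, stayed between 0.184 and 0.405 FPKM, and Hoxa4 between 0.509 and 0.996 FPKM. For Hoxa13, a gene of the digits and the genital region, 1 read was recovered, in PM replicate 2.

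In the Hoxb cluster, Hoxb9 (ENSMUSG00000020875), which acts with the other paralogs of its number on the ribs and sternum, had 7.48, 8.44 and 8.69 FPKM in C2S, 8.58, 10.2 and 8.58 FPKM in OM and 24.5, 25.1 and 24.0 FPKM in PM libraries. The PM libraries stood far above the rest, and the C2S and OM libraries overlapped. Hoxb7, a homeobox gene of the trunk, was instead lowest in PM, with 7.36, 6.92 and 7.85 FPKM in C2S, 8.55, 7.59 and 9.55 FPKM in OM and 5.52, 5.98 and 6.70 FPKM in PM libraries. All PM libraries were below all others for Hoxb7, whose reads numbered 238 to 396 per library.

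Hoxb6 had 4.63, 4.20 and 4.69 FPKM in C2S, 5.25, 6.86 and 5.58 FPKM in OM and 6.09, 6.29 and 4.54 FPKM in PM libraries. For this gene the C2S and OM libraries did not overlap, whereas the PM libraries overlapped both. Hoxb3 had 4.32, 3.63 and 3.84 FPKM in C2S, 4.39, 4.54 and 4.65 FPKM in OM and 5.77, 6.31 and 5.54 FPKM in PM libraries, in 3 groups that did not overlap. Hoxb4, known for expanding blood stem cells, had 2.26, 2.20 and 2.35 FPKM in C2S, 1.61, 2.28 and 2.16 FPKM in OM and 2.86, 2.73 and 2.77 FPKM in PM libraries, the PM libraries being the highest. Hoxb2, a hindbrain gene, had 1.26, 1.28 and 1.67 FPKM in C2S, 1.11, 1.09 and 0.942 FPKM in OM and 1.84, 2.13 and 2.09 FPKM in PM libraries. Its groups did not overlap, and its lowest libraries were those of OM. Hoxb8 lay between 0.946 and 1.17 FPKM in C2S, between 0.963 and 1.24 FPKM in OM and between 1.24 and 1.64 FPKM in PM libraries. Hoxb5 was low at 0.436 to 1.21 FPKM, and Hoxb1, the hindbrain gene at the other end of the cluster, had at most 2 reads in a library.

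**Figure D2:**
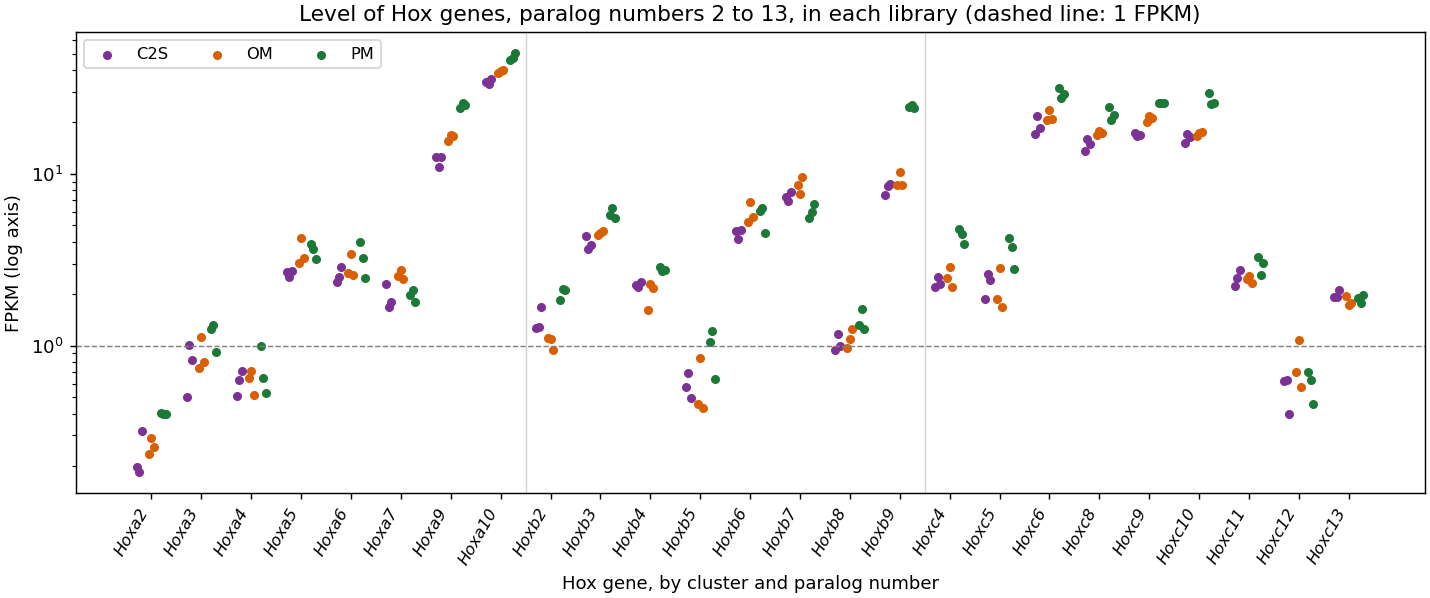
FPKM of the Hox genes with paralog numbers 2 to 13 in each of the 9 libraries on a logarithmic axis, by cluster, with a dashed line at 1 FPKM. Each point is 1 library, and Hoxa13 and the Hoxd genes, all under 0.05 FPKM, are left out. The PM points stand apart above the others for Hoxa9, Hoxa10, Hoxb9 and the middle Hoxc genes and below them for Hoxb7.

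The Hoxc cluster carried the largest sum, with 4 genes between 13.6 and 31.3 FPKM in every library. Hoxc6 had 17.1, 21.6 and 18.4 FPKM in C2S, 20.4, 23.6 and 20.95 FPKM in OM and 31.3, 27.4 and 29.1 FPKM in PM libraries. Hoxc8, which patterns the lower thoracic and lumbar vertebrae, had 13.6, 15.9 and 14.9 FPKM in C2S, 16.9, 17.6 and 17.3 FPKM in OM and 24.5, 20.6 and 21.9 FPKM in PM libraries. The PM libraries were the highest for both genes, and the C2S and OM libraries overlapped for Hoxc6 alone. Hoxc9, of the thoracic region, had 17.3, 16.7 and 16.9 FPKM in C2S, 20.0, 21.8 and 21.1 FPKM in OM and 25.96, 25.7 and 25.7 FPKM in PM libraries. Hoxc10, a gene of the lumbar region and of the hindlimb, had 15.1, 17.1 and 16.4 FPKM in C2S, 16.5, 17.3 and 17.5 FPKM in OM and 29.7, 25.6 and 25.9 FPKM in PM libraries. The 3 groups of Hoxc9 did not overlap, while for Hoxc10 the C2S and OM libraries did.

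At the ends of the Hoxc cluster the levels were lower. Hoxc4 had 2.20, 2.52 and 2.28 FPKM in C2S, 2.46, 2.87 and 2.20 FPKM in OM and 4.79, 4.43 and 3.92 FPKM in PM libraries. Hoxc5 had 1.87, 2.60 and 2.42 FPKM in C2S, 1.88, 2.84 and 1.67 FPKM in OM and 4.25, 3.74 and 2.80 FPKM in PM libraries. The PM libraries were apart for Hoxc4, and for Hoxc5 1 OM library reached the lowest PM library. Hoxc11, known from the lower spine and the hindlimb, had 2.21, 2.48 and 2.76 FPKM in C2S, 2.46, 2.53 and 2.30 FPKM in OM and 3.29, 2.59 and 3.01 FPKM in PM libraries. Hoxc13, required in mouse for hair, had 1.91, 1.93 and 2.10 FPKM in C2S, 1.94, 1.73 and 1.77 FPKM in OM and 1.89, 1.77 and 1.98 FPKM in PM libraries. The Hoxc13 groups overlapped, and this last gene of the cluster was on in all media. Hoxc12 was low at 0.398 to 1.08 FPKM. The exons of Hoxc5 and Hoxc10 share 166 bases on the same strand, and the counting may split those reads between them.

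The 3 Hoxd genes measured were near silent, while the other 6 genes of that cluster were not analysed here. Hoxd8 had at most 3 reads in a library (0.0385 FPKM), Hoxd4 had 1 read in C2S replicate 2 and 0 elsewhere, and Hoxd13, a digit gene, had 0 reads, which allows a level of up to 0.0312 to 0.0408 FPKM by library, counting error only. The genes next to that cluster on chromosome 2 were expressed, as Mtx2, a mitochondrial import gene, averaged 23.5 ± 0.690 FPKM in C2S, 21.1 ± 1.29 in OM and 19.5 ± 1.43 in PM libraries (SD, n = 3 each). Likewise Lnpk, an endoplasmic reticulum gene, averaged 7.88 ± 0.238 FPKM in C2S, 8.10 ± 0.663 in OM and 9.67 ± 0.619 in PM libraries (SD, n = 3 each).

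OM against PM compares libraries with and without the osteogenic supplements. Most Hox genes that changed were lower in OM, with Hoxb9 first among them, and the paralogs numbered 7 went the other way. Of the 21 Hox genes tested, 14 passed limma at an adjusted p below 0.05, 2 higher and 12 lower, against 54.8% of all 13049 genes tested, of which 27.1% were higher and 27.7% lower. The other 10 members had too low a level to be tested, and all 21 tested genes reached 1 FPKM in at least 1 library of every group. The median log2 fold change of the tested Hox genes was -0.29, against 0.0028 over all genes tested. By cluster, Hoxa had 1 higher, 2 lower and 3 not passed, Hoxb had 1 higher, 4 lower and 2 not passed, and Hoxc had 0 higher, 6 lower and 2 not passed.

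Fold changes are differences of log2(FPKM + 1) with their standard errors, and every adjusted p comes from limma with Benjamini-Hochberg adjustment over all genes tested. Hoxb9 fell by 1.34 on that scale in OM (SE 0.073, adjusted p = 6.2e-07), the largest change of a Hox gene in this comparison. Hoxc10 (-0.63 ± 0.066, adjusted p = 4.7e-05), Hoxc4 (-0.62 ± 0.089), Hoxa9 (-0.59 ± 0.059, adjusted p = 3.4e-05), Hoxb2 (-0.56 ± 0.088) and Hoxc5 (-0.56 ± 0.16, adjusted p = 0.0166) followed. Smaller falls were those of Hoxc6 (-0.42 ± 0.089), Hoxc8 (-0.35 ± 0.071), Hoxb4 (-0.33 ± 0.087), Hoxb3 (-0.31 ± 0.067), Hoxc9 (-0.29 ± 0.040) and Hoxa10 (-0.27 ± 0.045, adjusted p = 0.00096). Hoxb7 rose by 0.43 ± 0.088 (adjusted p = 0.00258) and Hoxa7 by 0.28 ± 0.086 (adjusted p = 0.0225). The genes that did not pass had values of -0.21 ± 0.085 (Hoxc11), -0.20 ± 0.13 (Hoxa3), -0.19 ± 0.092 (Hoxb8), -0.12 ± 0.13 (Hoxa6), -0.037 ± 0.10 (Hoxa5), -0.033 ± 0.065 (Hoxc13) and 0.058 ± 0.12 (Hoxb6).

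Among these calls, 12 of 14 held under every alternative processing. The call of Hoxc5 was lost without OM replicate 1, OM replicate 3, PM replicate 1 or PM replicate 2 (adjusted p = 0.0515 to 0.0603 by limma). That of Hoxa7 was lost without OM replicate 1, OM replicate 2 or PM replicate 3, with no filter on low values and with totals set equal without Rn7sk (adjusted p = 0.0518 to 0.0937 by limma). With those totals, 2559 of all genes were called higher and 4363 lower, in place of 3542 and 3609, and 1 Hox gene higher and 13 lower. The stromal markers moved in the same comparison. Of the 12, 10 were tested, 1 rose (Ly6a) and 8 fell, against 54.8% of all genes called. The summed level of the 12 was 1749 to 1849 FPKM in C2S, 1659 to 1791 FPKM in OM and 2314 to 2377 FPKM in PM libraries. Markers of other cells moved too, mainly Cd34 in the blood list and 3 tested genes of the macrophage list. The blood list summed to 83.3 to 87.3 FPKM in C2S, 89.2 to 94.9 FPKM in OM and 130 to 137 FPKM in PM libraries. The 7 genes measured of the macrophage list summed to 37.4 to 44.1 FPKM in C2S, 26.7 to 32.3 FPKM in OM and 17.7 to 20.0 FPKM in PM libraries. Of the 3 tested, Cd14 carried the sum and rose in OM (1.18 ± 0.093, limma adjusted p = 6.9e-06). Lyz2, a lysozyme gene, averaged 0.410 ± 0.148 FPKM in OM and 4.04 ± 0.704 in PM libraries. It fell by 1.84 (SE 0.14, limma adjusted p = 5.1e-06), and Cd68 fell by 0.47 (SE 0.064). Of the untested genes of these lists, Ptprc, Itgam, Adgre1 and C1qa were at or near 0 in every library. Csf1r was low but present, averaging 0.288 FPKM in C2S, 0.244 in OM and 0.465 in PM libraries. The endothelial list, of which Tek alone was tested and rose in OM, summed to 2.73 to 2.82 FPKM in C2S, 2.04 to 2.45 FPKM in OM and 1.03 to 1.43 FPKM in PM libraries. In it Cdh5 and Tie1 were near 0, and Kdr averaged 0.78 FPKM in C2S, 0.951 in OM and 0.794 in PM libraries. Emcn averaged 0.174 FPKM in C2S, 0.0864 in OM and 0.0028 in PM libraries, and Pecam1 0.266, 0.169 and 0.118 FPKM. The part of these genes in the Hox values was not tested.

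**Figure D3:**
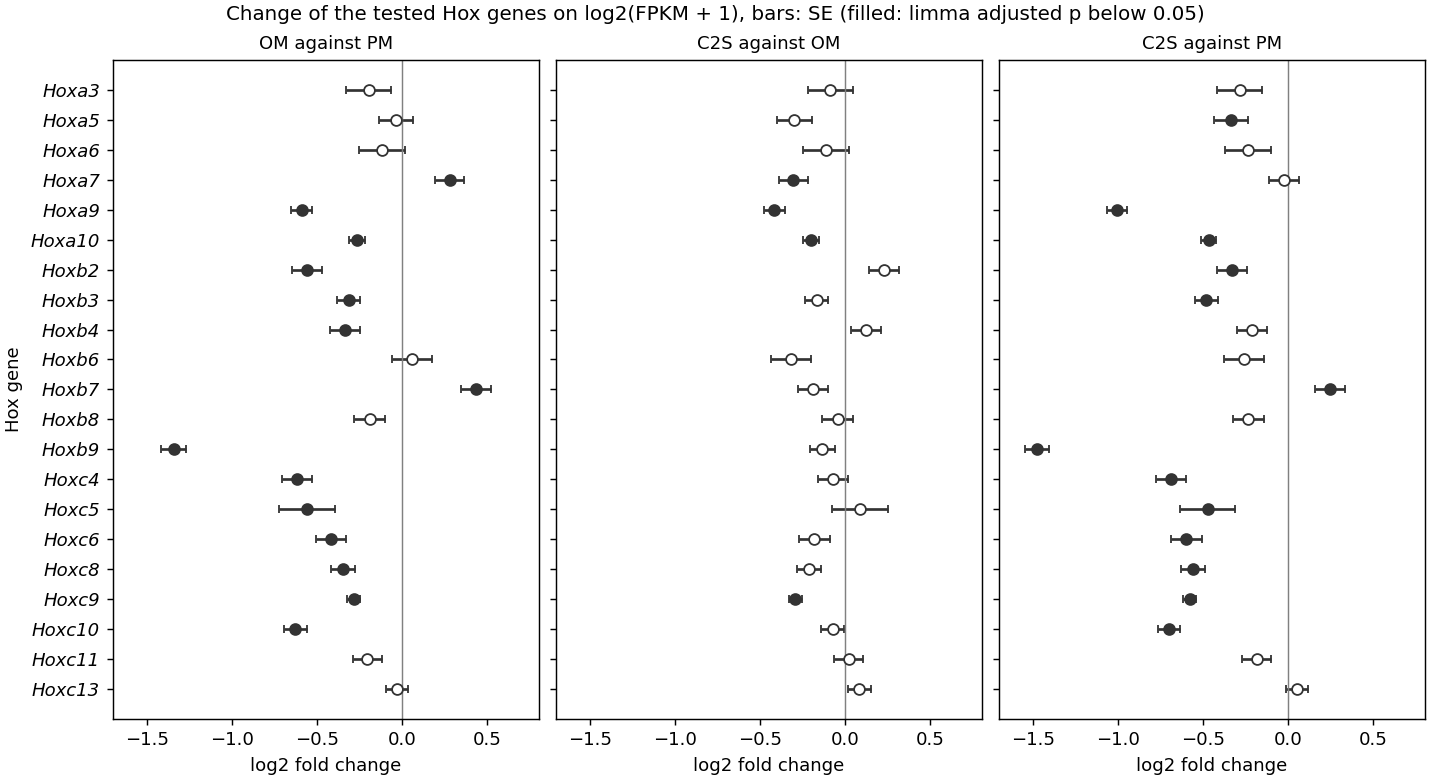
Change of the 21 tested Hox genes in each comparison as the difference of log2(FPKM + 1) with its standard error, filled where limma's adjusted p is below 0.05. In OM against PM, Hoxb9 lies farthest to the left and Hoxb7 and Hoxa7 are filled to the right of 0, and in C2S against OM 4 genes are filled, all to the left.

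Dicalcium silicate was added on top of the supplements, and C2S against OM compares libraries with and without it. The Hox genes called were all lower in C2S and included the paralogs 9 and 10 of Hoxa. Of the 21 tested, 4 passed limma, all lower, against 22% of all genes tested, of which 10.6% were higher and 11.5% lower. The share of Hox genes called is thus close to the background. Hoxa9 fell by 0.42 in C2S (SE 0.059, limma adjusted p = 0.00197), Hoxc9 by 0.29 (SE 0.040, adjusted p = 0.00157), Hoxa7 by 0.30 (SE 0.086, adjusted p = 0.0361) and Hoxa10 by 0.20 (SE 0.045, adjusted p = 0.0142). Hoxa held 3 of these calls among its 6 tested genes, and Hoxc held 1 among its 8. The median log2 fold change was -0.13 over the tested Hox genes and -0.0071 over all genes tested.

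The other high Hoxb and Hoxc genes did not pass here. Hoxb9 had -0.13 ± 0.073 (limma adjusted p = 0.218), Hoxc10 -0.074 ± 0.066 (adjusted p = 0.461), Hoxc6 -0.18 ± 0.089 (adjusted p = 0.179) and Hoxc8 -0.21 ± 0.071 (adjusted p = 0.0625). Larger values with a wider error were those of Hoxb6 (-0.32 ± 0.12) and Hoxa5 (-0.30 ± 0.10), and Hoxb2 had 0.23 ± 0.088. The calls of Hoxa9 and Hoxc9 held under every alternative. Without C2S replicate 2 the count of calls was 2 in place of 4, since those of Hoxa10 (adjusted p = 0.0564) and Hoxa7 (adjusted p = 0.119) were lost, and Hoxa7 lost its call under 8 of 15 alternatives, among them those without C2S replicate 3 or any of the 3 OM libraries. Hoxa2 was too low for the main filter. Without that filter it did not pass in C2S against OM (limma adjusted p = 0.750). It passed as lower in OM against PM (-0.15 ± 0.046, limma adjusted p = 0.0437) and in C2S against PM (-0.19 ± 0.046, limma adjusted p = 0.0181).

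Set against PM, which is shared with the first comparison, C2S gave 13 calls among the 21 tested Hox genes, 1 higher and 12 lower, where 56% of all genes were called, 27.6% higher and 28.4% lower. Hoxb9 (-1.48 ± 0.073, limma adjusted p = 3.1e-07) and Hoxa9 (-1.01 ± 0.059, adjusted p = 9.6e-07) had the largest falls. The other falls were those of Hoxc10 (-0.70), Hoxc4 (-0.69), Hoxc6 (-0.60), Hoxc9 (-0.58), Hoxc8 (-0.56), Hoxb3 (-0.48), Hoxc5 (-0.47), Hoxa10 (-0.47), Hoxa5 (-0.34) and Hoxb2 (-0.33), with standard errors of 0.040 to 0.16. Hoxb7 rose by 0.25 ± 0.088 (adjusted p = 0.0385), a call lost under 8 of 15 alternatives with adjusted p up to 0.125, among them those without C2S replicate 1 or 3, OM replicate 1 or PM replicate 1 or 2. The call of Hoxc5 was lost without C2S replicate 1 or 3 or PM replicate 1 or 2 (limma adjusted p up to 0.115). That of Hoxa5 was lost without C2S replicate 2 or PM replicate 1 or 2 (limma adjusted p up to 0.0645). With no filter on low values both were lost as well (limma adjusted p = 0.0880 for Hoxc5 and 0.0504 for Hoxa5). Of the 13 calls, 10 held under every alternative. With totals set equal without Rn7sk, 15 Hox genes were lower and 0 higher, and of all genes 2695 were higher and 4325 lower, in place of 3605 and 3706.

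Summed over a cluster, the levels followed the order of the media. The Hoxa sum was 55.6 ± 2.30 FPKM in C2S, 67.6 ± 2.54 in OM and 84.6 ± 1.07 in PM libraries (SD, n = 3 each). The Hoxb sum was 29.3 ± 1.12 FPKM in C2S, 32.9 ± 1.82 in OM and 49.3 ± 1.94 in PM libraries, and the Hoxc sum was 76.7 ± 4.80 FPKM in C2S, 86.7 ± 4.22 in OM and 118 ± 7.46 in PM libraries (SD, n = 3 each). The groups did not overlap for any of the 3 clusters. Each sum differed among the groups by a two-sided exact permutation test over 1680 assignments (p = 0.00357, the smallest it can give, 0.00833 adjusted over 7 cluster measures). Pairs of groups with 3 libraries each cannot go below an exact p of 0.1, and every pair reached it. Relative to PM, the OM sum was 0.798 of it for Hoxa, 0.666 for Hoxb and 0.736 for Hoxc, and relative to OM the C2S sum was 0.823 for Hoxa, 0.892 for Hoxb and 0.884 for Hoxc. A sum is dominated by its highest genes. Hoxb9 averaged 8.20 FPKM in C2S, 9.12 in OM and 24.6 in PM libraries. Its fall makes up most of the Hoxb difference of -16.5 FPKM between OM and PM, so that difference says little about the other Hoxb genes. Of the 7 Hoxb genes tested, 4 were lower in OM, 1 was higher and 2 did not pass, where 54.8% of all genes were called.

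**Figure D4:**
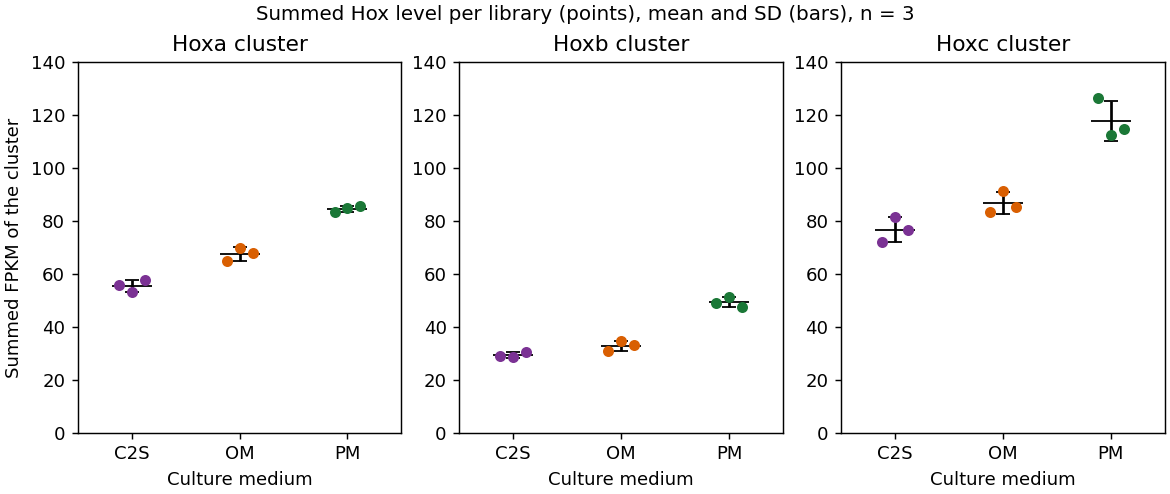
Summed FPKM of the Hoxa, Hoxb and Hoxc genes in each library (points), with the mean and SD of the 3 libraries of each medium (bars), on axes that start at 0. In each cluster the C2S libraries are lowest and the PM libraries highest, with no overlap between neighbours.

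The makeup of the Hox total, over the genes measured here, was compared in the same way. Hoxa held 34.4% ± 1.60 of the summed Hox FPKM in C2S, 36.1% ± 0.355 in OM and 33.6% ± 1.21 in PM libraries (SD, n = 3 each, exact permutation p = 0.0964, 0.135 adjusted over the 7 measures). Hoxb held 18.1% ± 0.587 in C2S, 17.6% ± 0.267 in OM and 19.6% ± 0.939 in PM libraries (exact permutation p = 0.0107, adjusted p = 0.0188), and Hoxc 47.4% ± 2.17 in C2S, 46.3% ± 0.441 in OM and 46.8% ± 1.87 in PM libraries (exact permutation p = 0.793). The mean paralog number weighted by FPKM was 8.13 ± 0.029 in C2S, 8.14 ± 0.057 in OM and 8.20 ± 0.059 in PM libraries (exact permutation p = 0.282, adjusted p = 0.329). Of these 4 measures the Hoxb share passed, and the Hoxb sum behind it holds the fall of Hoxb9 given above. No shift of the weighted paralog number was detectable with 3 libraries a group. The Hoxa share passed without C2S replicate 2 (exact permutation p = 0.0143).

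Noncoding genes of the clusters were measured by few reads. The miRNA genes Mir196a-1, beside Hoxb9, and Mir196a-2, beside Hoxc10, encode the same mature miRNA, which in mouse is known to act on Hoxb8 mRNA, and Mir10a lies next to Hoxb4. The sequences are RefSeq entries on GRCm38.p6 with the seed, bases 2 to 8, in capitals, and are shown because the hairpin genes lie among the Hox genes that changed.
miR-196a-5p, chr11:96265187-96265208 and chr15:102973365-102973386, plus strands: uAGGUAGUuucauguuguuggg
miR-10a-5p, chr11:96317186-96317208, plus strand: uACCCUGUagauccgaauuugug
miR-615-3p, chr15:103014969-103014990, plus strand: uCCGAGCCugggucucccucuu
The 3 seeds differ. Total RNA libraries count reads on the hairpin gene and not the mature miRNA. Mir196a-2 had 9, 6 and 14 reads in C2S, 6, 16 and 9 reads in OM and 18, 19 and 15 reads in PM libraries, and it was called lower in OM against PM (-0.77 ± 0.28, limma adjusted p = 0.0395). That call was lost under 7 of 15 alternatives, with adjusted p up to 0.131, and the C2S and OM libraries overlapped. Mir196a-1, the highest in FPKM of the 13 noncoding genes measured, had 39 to 86 reads per library on a gene of 102 bases and did not pass in any comparison. Of the 5 noncoding genes tested, 0 rose, 1 fell and 4 did not pass in OM, against 54.8% of all genes called. The antisense RNA gene Hotairm1, in the Hoxa cluster, had more reads, 72 to 101 per library, and 2.995 to 4.31 FPKM, and Hotair, in the Hoxc cluster, had 7 to 16 reads.

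Overlaps limit some members. By the annotation, 12 of the 31 Hox genes share exon bases with another gene, 8 of them with a gene on the opposite strand, and the sources used here do not say whether the counting used strand. Hoxb3 shares 2250 and Hoxb2 953 exon bases with the antisense gene Hoxb3os, Hoxa7 shares 586 with Hoxaas3, and Hoxa9 shares 85 with Mir196b, so these values may hold reads of both genes. Among 6614 listed circular RNAs, 0 carried a Hox gene identifier. A single one lay in a Hox cluster, spanning 1335 bases at chromosome 11, 96322111 to 96323445, on the plus strand, from upstream of Hoxb3 into its first exon. The authors typed it as intergenic, and it rested on 2, 3 and 2 back-splice reads in C2S libraries (112, 167 and 118 RPM), on 3 and 2 in OM replicates 1 and 3 with no listed value in OM replicate 2, and on 2, 3 and 4 in PM libraries, too few for a comparison.

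Of 11 TALE homeodomain genes, 10 reached the level needed for testing, and Pbx4 stayed at or under 0.52 FPKM. The list holds Tgif1 and Tgif2 beside the Pbx, Meis and Pknox cofactors of Hox proteins. Of the 10 tested in OM against PM, 0 rose, 4 fell and 6 did not pass, against 54.8% of all genes called, with a median log2 fold change of -0.11. Pbx3, a Hox partner, averaged 9.49 ± 0.391 FPKM in OM and 15.3 ± 1.21 in PM libraries (SD, n = 3 each; log2 ratio -0.63 ± 0.065, adjusted p = 4.0e-05 in limma), while Meis2, the highest of the list at 28.0 to 35.7 FPKM, did not pass. In C2S against OM 2 rose and 2 fell, against 22% of all genes called, among them Tgif1, a repressor of the family, which averaged 22.4 ± 0.574 FPKM in C2S and 14.4 ± 0.907 in OM libraries (0.61 ± 0.060, adjusted p = 0.000404), and Pbx3 (-0.26 ± 0.065), a call lost under 6 of 15 alternatives.

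Regulators of Hox genes were counted in the same way. Of 30 Polycomb genes, 4 rose, 11 fell and 15 did not pass in OM against PM (median log2 fold change -0.053), a share near the 54.8% called among all genes. Rybp (-0.85 ± 0.059) had the largest fall, Cbx7 (0.36 ± 0.091) the largest rise (adjusted p = 0.0532 with totals set equal without Rn7sk) and Rbbp7 the highest level. In C2S against OM, where 22% of all genes were called, 4 rose and 4 fell, led by Phc2 (0.76 ± 0.077) and Ezh1 (-0.37 ± 0.044). Of 16 Trithorax and other activator genes, 0 rose and 1 fell in OM (Wdr82, -0.15 ± 0.034), against 54.8% of all genes called. In C2S against OM 1 rose (Wdr5, 0.24 ± 0.042) and 1 fell (Psip1, -0.28 ± 0.048), against 22% of all genes called. The ligand gene Gdf11, which sets Hox boundaries in the embryo, fell by 0.68 in OM (SE 0.058), and it was the one tested gene of the Cdx, ParaHox and Evx list. In the retinoic acid pathway 5 of 11 rose, 5 fell and 1 did not pass in OM, against 54.8% of all genes called. Aldh1a1, an enzyme that makes retinoic acid, averaged 1223 ± 66.4 FPKM in OM and 87.5 ± 8.30 in PM libraries (3.79 ± 0.075), and the receptor gene Rarb 17.9 ± 0.0861 FPKM in OM and 3.51 ± 0.283 in PM libraries (2.07 ± 0.062). The binding protein gene Crabp1 fell by 0.82 (SE 0.073). In C2S against OM 3 rose and 3 fell, against 22% of all genes called, with Rarb (0.60 ± 0.062) and Dhrs3 (-0.43 ± 0.081) the largest.

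Other positional genes and the neighbours of the clusters give the setting. Of 18 genes flanking the Hox clusters, 5 rose, 6 fell and 7 did not pass in OM against PM, a share near the 54.8% called among all genes (27.1% higher and 27.7% lower). Atp5g2 (0.41 ± 0.073) and Nfe2l1 (-0.71 ± 0.050) moved most, and Hnrnpa1 was highest in level on the mean of all 9 libraries. In C2S against OM, 0 of the 18 rose and 2 fell, against 22% of all genes called. Of 9 tested limb and trunk homeobox and T-box genes, 1 rose (Tbx18, 0.34 ± 0.070) and 8 fell in OM, the largest fall being that of Irx5 (-0.91 ± 0.065). Prrx1, a limb bud mesenchyme gene and the highest of that list, averaged 50.3 ± 4.03 FPKM in OM and 91.3 ± 4.61 in PM libraries. In C2S against OM 1 of the 9 passed, Irx3 (0.32 ± 0.090), a call lost under 8 of 15 alternatives. Tbx5, the forelimb gene, was at 0 in all libraries but 1, and Tbx4, the hindlimb gene, was at or under 0.3 FPKM. Of 4 tested genes of cranial mesenchyme, 0 rose and 3 fell in OM, with Foxd1 (-0.56 ± 0.071) first, and 1 rose (Twist1, 0.52 ± 0.043) and 2 fell in C2S against OM. In C2S against PM 27.6% of all genes were higher and 28.4% lower. There the same lists gave 2 higher and 5 lower for TALE genes, 6 and 11 for Polycomb and 1 and 4 for Trithorax. Retinoic acid genes gave 3 and 4, flanking genes 4 and 5, limb and trunk genes 1 and 6 and cranial genes 1 and 3.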

How the data were processed

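Linear RNA and circular RNA tables of 9 libraries were used, 3 each of C2S, OM and PM. The submitters' processing notes name STAR, HTSeq, RSEM and mm10, without roles or versions. The authors deposited linear values with no unit named, and these are read here as FPKM, since value times the longest GENCODE M21 transcript length gave whole reads for 98.4% to 98.8% of low values (tolerance 0.1 reads). The deposited circular RNA values are read as RPM. The promoter and miRNA sequences are RefSeq entries on GRCm38.p6.

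The 13049 genes that reached 1 FPKM in 3 or more libraries entered the test as log2(FPKM + 1), a scale that understates changes of low genes, with limma 3.58.1 in R 4.3.3 (mean trend, 1 fit over all 9 libraries, group as the only factor, Benjamini-Hochberg adjustment, threshold 0.05). Cluster sums and shares were compared by exact permutation over libraries in Python 3.11.15. The fit was tested on simulated data. Members, gene lists and tests were chosen with earlier results of these data known. The counts and sums cover all Hox genes, and of each other list the called gene with the largest change in each direction and the gene with the highest mean were to be named, except for a few genes that are not reported here. Alternatives were another pseudocount, no filter, 2 other scalings, fits on 2 groups, a replicate block and leaving out each library.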

Additional observations from a re-analysis of the deposited data

How the results depend on the processing

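The 3 counts of called Hox genes were recomputed under 15 alternatives by limma. OM against PM gave 12 to 15 calls, C2S against OM 2 to 5 and C2S against PM 10 to 16, and the one count that moved by over 1.5 times was that of C2S against OM without C2S replicate 2, with 2 calls in place of 4. Of the calls, 12 of 14, 2 of 4 and 10 of 13 held under every alternative in these comparisons. With replicate number as a block, the fit gave 14, 4 and 13 Hox calls, the counts of the fit without it, and 7378, 2958 and 7515 calls over all genes. Same-numbered libraries of different groups had correlations of -0.092 to 0.40 in their deviations from the group means, with 4 of 9 pairs above 0.1, and differently numbered ones -0.47 to 0.19, with 3 of 18 above 0.1. A library correlated best with its own number in 13 of 18 cases, a hint from the data alone, and the numbers were not taken to pair the libraries, since not every same-numbered pair was above 0.1. Scaling to totals without Rn7sk moved the median log2 fold change of all genes to -0.079 in OM against PM, and under it Hoxb6 had -0.024 in OM against PM and Hoxc13 -0.0073 in C2S against PM, both of the opposite sign to the values given above and neither passing. Leaving out 1 library turned the sign of some genes that did not pass. Over the libraries left out, log2 fold changes in OM against PM spanned -0.067 to 0.13 for Hoxb6, -0.15 to 0.038 for Hoxa5 and -0.26 to 0.0067 for Hoxa6. In C2S against OM they spanned -0.037 to 0.079 for Hoxc11, -0.019 to 0.24 for Hoxc5, -0.092 to 0.0044 for Hoxb8, -0.14 to 0.0019 for Hoxc4 and -0.18 to 0.029 for Hoxa3, and in C2S against PM -0.11 to 0.031 for Hoxa7. Calls gained under some alternative were those of Hoxc11 in OM against PM, Hoxb6, Hoxc8 and Hoxa5 in C2S against OM, and Hoxb6, Hoxc11, Hoxb4, Hoxa6 and Hoxb8 in C2S against PM. The 3 cluster sums kept their direction and call under each scaling and without each library. Over the libraries left out, the exact permutation p of the Hoxa share ranged from 0.0143 (without C2S replicate 2, where it passed) to 0.204, and that of the Hoxc share from 0.493 to 0.929, its OM minus PM difference changing sign without PM replicate 1. The cause of these changes was not tested. The FPKM scale divides by the size of each library, so a change of all RNA in a cell would not be seen. Genes with few reads, such as the Hoxd genes and the miRNA genes, carry the widest error.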
